A study of Mus musculus with 18 samples.

Results

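The GIMAP genes encode the GTPases of immunity-associated proteins, a family of GTP-binding proteins of lymphocytes, some of which sit on inner membranes. The genes measured here were the members of that family by name, Gimap1, Gimap3, Gimap4, Gimap5, Gimap6, Gimap7, Gimap8 and Gimap9, which are 8 of the 55536 genes in the count table. All 8 passed the filter on low counts that left 15204 genes for testing. RNA was sequenced from sorted CD4 T cells of C57BL/6 mice in 18 libraries, 3 in each of 6 groups, to find what Cbl-b controls when T cells become anergic. All groups carried OTII, a transgenic T cell receptor for an ovalbumin peptide that gives the mice a nearly uniform CD4 repertoire.

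The 4 peripheral groups were CD25-negative, Va2-positive naive cells, sorted as low in CD44, from spleens and lymph nodes. They were Cbl-b-/-W131AOTII, Cbl-b-/- OTII, W131AOTII and OTII cells. The 2 thymic groups were CD4 single-positive thymocytes of W131AOTII and OTII mice, sorted by the same CD25 and Va2 gates. W131AOTII mice carry a substitution in ZAP-70, the kinase behind the T cell receptor, that weakens its autoinhibited state, and the series treats it as a model of anergy. Cbl-b-/- mice lack Cbl-b, a ubiquitin ligase that holds T cell receptor signals in check. Per the labels, 12 W131AOTII mice were used with 4 per group and 6 Cbl-b-/-W131AOTII mice with 2 per group, so libraries of those genotypes may pool animals, while 3 OTII and 3 Cbl-b-/- mice were used. The animals behind each library were not given in the sources used here. Peripheral and thymic libraries of the same genotype may therefore come from the same mice, while the tests treat all libraries as independent. P-values then measure the spread between these libraries, which may be partly technical.

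GIMAP proteins are known for keeping resting lymphocytes alive, and their genes lie side by side in 1 cluster in mammals. Gimap5 sits on lysosomal membranes, and its loss in rats and mice depletes peripheral T cells. Gimap3 is its close relative in the mouse, and Gimap1 is needed for mature lymphocytes. Gimap6 binds ATG8-family proteins of autophagy, and Gimap4 has been tied to the pace of apoptosis in T cells. Gimap7 is a GTPase that in humans acts through dimers with other family members, Gimap8 carries several GTPase domains, and Gimap9 is the least studied of them. Bulk RNA cannot tell fewer cells that express a gene from less RNA of it per cell.

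Promoter sequence is shown for the 4 members that passed the test in a comparison between genotypes. Each line is the 250 bases before the RefSeq start on GRCm38.p6, 5′ to 3′ on the gene's own strand. Capitals mark the letters of RUNX (TGTGGT or ACCACA), ETS (GGAAGT or ACTTCC) or FOXO (GTAAACA or TGTTTAC) motifs, searched on both strands as factors of T cell identity and quiescence. The fourth motif searched, TCF (CTTTGAT or ATCAAAG), is in none of these windows. The windows are chr6:48718371-48718620, plus strand, for Gimap7, chr6:48708245-48708494, minus strand, for Gimap6, chr6:48684328-48684577, plus strand, for Gimap4, and chr6:48770852-48771101, minus strand, for Gimap3.
Gimap7: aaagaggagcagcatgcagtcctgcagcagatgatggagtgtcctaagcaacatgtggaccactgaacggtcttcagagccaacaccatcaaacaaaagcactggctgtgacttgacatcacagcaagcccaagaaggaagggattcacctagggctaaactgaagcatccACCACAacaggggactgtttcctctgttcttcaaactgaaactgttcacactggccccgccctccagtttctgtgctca
Gimap6: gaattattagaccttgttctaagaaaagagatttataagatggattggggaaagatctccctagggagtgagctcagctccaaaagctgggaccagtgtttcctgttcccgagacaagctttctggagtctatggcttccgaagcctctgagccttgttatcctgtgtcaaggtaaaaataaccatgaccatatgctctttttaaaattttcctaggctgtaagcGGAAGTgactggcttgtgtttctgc
Gimap4: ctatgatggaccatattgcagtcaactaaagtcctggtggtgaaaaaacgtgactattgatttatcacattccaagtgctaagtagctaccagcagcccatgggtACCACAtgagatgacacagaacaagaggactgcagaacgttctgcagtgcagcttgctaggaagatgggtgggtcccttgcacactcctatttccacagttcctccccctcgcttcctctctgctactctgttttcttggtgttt
Gimap3: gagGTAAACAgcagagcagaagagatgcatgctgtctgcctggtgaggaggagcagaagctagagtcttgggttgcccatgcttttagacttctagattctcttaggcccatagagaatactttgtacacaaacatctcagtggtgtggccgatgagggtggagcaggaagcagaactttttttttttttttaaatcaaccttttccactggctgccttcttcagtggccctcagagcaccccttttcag
The RUNX letters lie 79 bases before the start in Gimap7 and 145 bases before it in Gimap4, and also 95 bases before it in Gimap1. Of all 32851 RefSeq promoter windows of 250 bases, 14.0% hold the RUNX letters. The ETS letters lie 25 bases before the start in Gimap6, and Gimap5 holds them at 216 and 44 bases, against 19.7% of all windows. The FOXO letters lie 247 bases before the start in Gimap3, against 3.17% of all windows, and 3.21% hold the TCF letters. The windows of Gimap8 and Gimap9 hold none of the 4 motifs. These matches describe letters, not sites that a factor was shown to bind.

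The 8 genes fill chromosome 6 from 48647234 to 48770851 on GRCm38 (GENCODE M21), a span of 123.6 kb between AI854703 and Tmem176b. In order along the chromosome they are Gimap8 (ENSMUSG00000064262), Gimap9 (ENSMUSG00000051124), Gimap4 (ENSMUSG00000054435), Gimap6 (ENSMUSG00000047867), Gimap7 (ENSMUSG00000043931), Gimap1 (ENSMUSG00000090019), Gimap5 (ENSMUSG00000043505) and Gimap3 (ENSMUSG00000039264). Gimap6 and Gimap3 are on the minus strand and the other 6 on the plus strand. Counts over exons are not wholly separate in the cluster. Gm28053, an annotated readthrough gene on the plus strand, shares 3.48% of the exon bases of Gimap7, 6.44% of those of Gimap1 and 3.69% of those of Gimap5. Gimap1os, an antisense transcript, covers 36.02% of the Gimap1 exon bases, and no source used here gives the strand setting of the counting.

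**Figure D1:**
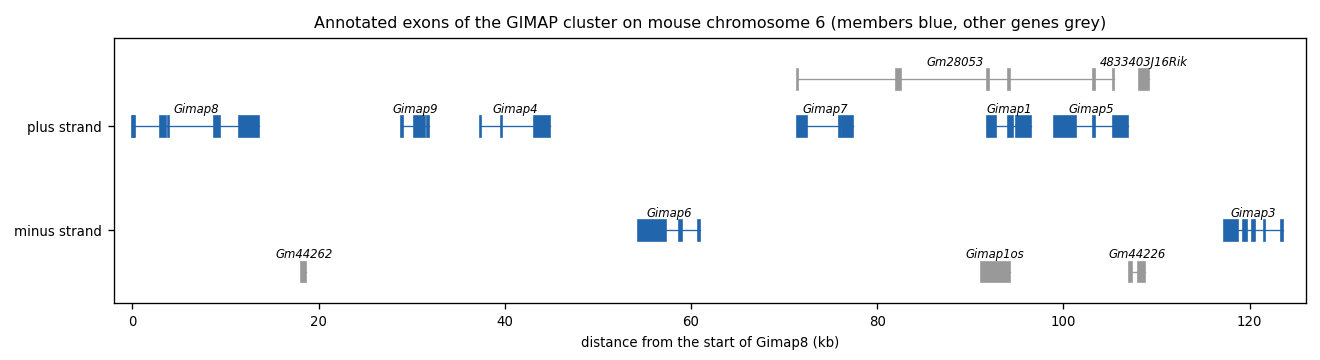
Exons (boxes) of the 8 GIMAP genes in blue and of other annotated genes in grey, plotted by distance in kb from the start of Gimap8, with the plus strand above and the minus strand below. Gm28053 overlaps exons of Gimap7, Gimap1 and Gimap5, and Gimap1os covers 36.02% of the Gimap1 exon bases on the other strand.

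Gimap3 and Gimap5 also share sequence with each other. Of the 50-base stretches of their transcripts, the length of the reads, 7.52% in Gimap3 and 4.53% in Gimap5 occur in both genes, while the other 6 members share none with another member. The longest shared stretch is 140 bases of coding sequence, given here from the GENCODE M21 transcripts in their own orientation because a read from it fits both genes.
Gimap3 and Gimap5: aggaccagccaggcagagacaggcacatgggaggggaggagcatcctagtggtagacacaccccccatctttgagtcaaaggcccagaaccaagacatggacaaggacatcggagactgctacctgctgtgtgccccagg
It begins at base 614 of the Gimap3 transcript and at base 427 of the Gimap5 transcript. Gimap3 had far more counts than Gimap5 in every library, so the values of Gimap5 carry the greater uncertainty from how such reads were counted.

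Per length of exon, Gimap3 was the most abundant member in the periphery. Levels here are CPM per kb of exon, where CPM is the usual depth-scaled count on library sizes adjusted by TMM factors. In peripheral OTII cells the members ran from Gimap3 at 718 ± 72.6, Gimap4 at 534 ± 30.4 and Gimap6 at 344 ± 32.5 CPM per kb, through Gimap1 at 152 ± 6.58 and Gimap9 at 88.5 ± 9.47, to Gimap7 at 54.8 ± 5.37, Gimap8 at 37.9 ± 4.08 and Gimap5 at 23.9 ± 0.974 (mean ± SD, n = 3). No neighbours in that order had overlapping libraries. Among the 15204 genes tested, ranked by this level in peripheral OTII cells, Gimap3 was number 33, Gimap4 number 41 and Gimap6 number 82, and Gimap5, the lowest of the family, was number 2515.

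W131AOTII and Cbl-b-/-W131AOTII cells had the same order with no overlap between neighbours. In Cbl-b-/- OTII cells the order was also the same, but the libraries of Gimap3 and Gimap4, of Gimap1 and Gimap9, and of Gimap9 and Gimap7 overlapped. In the thymus Gimap4 stood above Gimap3, at 392 ± 58.2 against 300.1 ± 34.2 CPM per kb in thymic W131AOTII cells and at 599.5 ± 136 against 422 ± 61.5 in thymic OTII cells. Those libraries overlapped in both thymic groups, so the order of the pair is within its spread there. The other thymic neighbours that overlapped were Gimap1 and Gimap9 in both groups, and Gimap3 and Gimap6 in thymic W131AOTII cells.

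**Figure D2:**
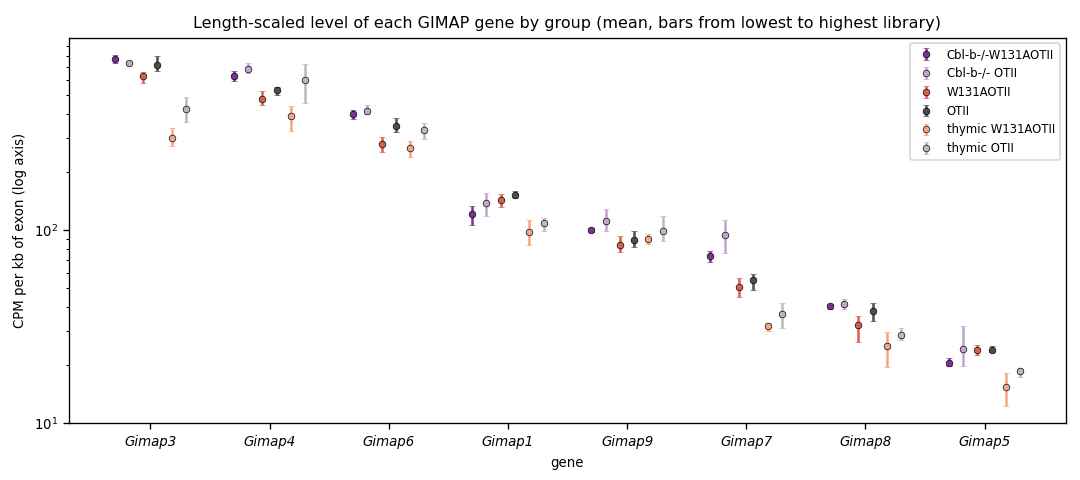
Level of each GIMAP gene in CPM per kb of exon (log axis), as the mean of 3 libraries for each of 6 groups with bars from the lowest to the highest library. Genes run from the highest level in peripheral OTII cells, Gimap3 at 718, to the lowest, Gimap5 at 23.9, and the thymic groups have Gimap4 above Gimap3.

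Totals of counts ran from 19708218 to 36218772 per library and members had between 1580 and 64283 counts. Cblb, the gene targeted in the Cbl-b-/- mice, was at 93.6 ± 15.1 CPM in Cbl-b-/-W131AOTII, 69.5 ± 19.8 in Cbl-b-/- OTII, 159 ± 15.9 in W131AOTII and 129 ± 10.7 in OTII cells (mean ± SD, n = 3), lower but not absent in the Cbl-b-/- libraries. T cell markers were high in all libraries, with 13720 to 25210 CPM summed over 6 genes. The 6 immature thymocyte markers summed to 214.9 to 356 CPM in the periphery and 214.8 to 423 CPM in the thymus. Most of that was Dntt, with group medians of 169 to 217 CPM in the periphery and of 237 CPM in thymic W131AOTII and 142 CPM in thymic OTII cells, while Rag1, Rag2 and Ptcra had a median of 0 in all 4 peripheral groups and 0.546 to 2.01 CPM in the thymic groups. The 5 NK and innate-like markers summed to 254 to 338 CPM in Cbl-b-/-W131AOTII, 94.1 to 173 in Cbl-b-/- OTII, 163 to 402 in W131AOTII and 73.9 to 86.3 CPM in OTII cells. The 7 B cell markers summed to 1528 to 3128 CPM in the periphery, highest in W131AOTII replicate 2, and to 610 to 905 CPM in the thymus, and most of that sum was Ighm. The 7 myeloid markers summed to 181 CPM in W131AOTII replicate 2 and 192 CPM in Cbl-b-/- OTII replicate 2, against 52.9 to 128 CPM elsewhere. The 5 endothelial markers summed to 293 to 448 CPM, of which Pecam1 alone had group medians of 327 to 430.3 CPM, while the defining Cdh5 and Tek had a median of at most 0.0386 CPM in any group. The 3 erythroid markers summed to at most 24.9 CPM in any library.

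Summed over the family, GIMAP transcripts were highest where Cbl-b was missing and lowest in thymic W131AOTII cells. The sum was 5479 ± 172 CPM in Cbl-b-/-W131AOTII, 5674 ± 232 in Cbl-b-/- OTII, 4383 ± 304 in W131AOTII and 5014 ± 361 in OTII cells (mean ± SD, n = 3). In the thymus it was 3103 ± 227 CPM in W131AOTII and 4114 ± 528 CPM in OTII cells. Libraries of W131AOTII cells lay between 4047 and 4640 CPM, below all 3 OTII libraries at 4702 to 5409 CPM, and those of both Cbl-b-/- groups lay between 5347 and 5870 CPM, overlapping the highest OTII library. These sums are a description, and Gimap3, Gimap4 and Gimap6 made up 75.3% to 83.2% of them. They rest on TMM scaling and were not recomputed with the offsets for GC content and length described below. With those offsets the log2 fold change of Gimap4 in Cbl-b-/- OTII against OTII cells was 0.0019.

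**Figure D3:**
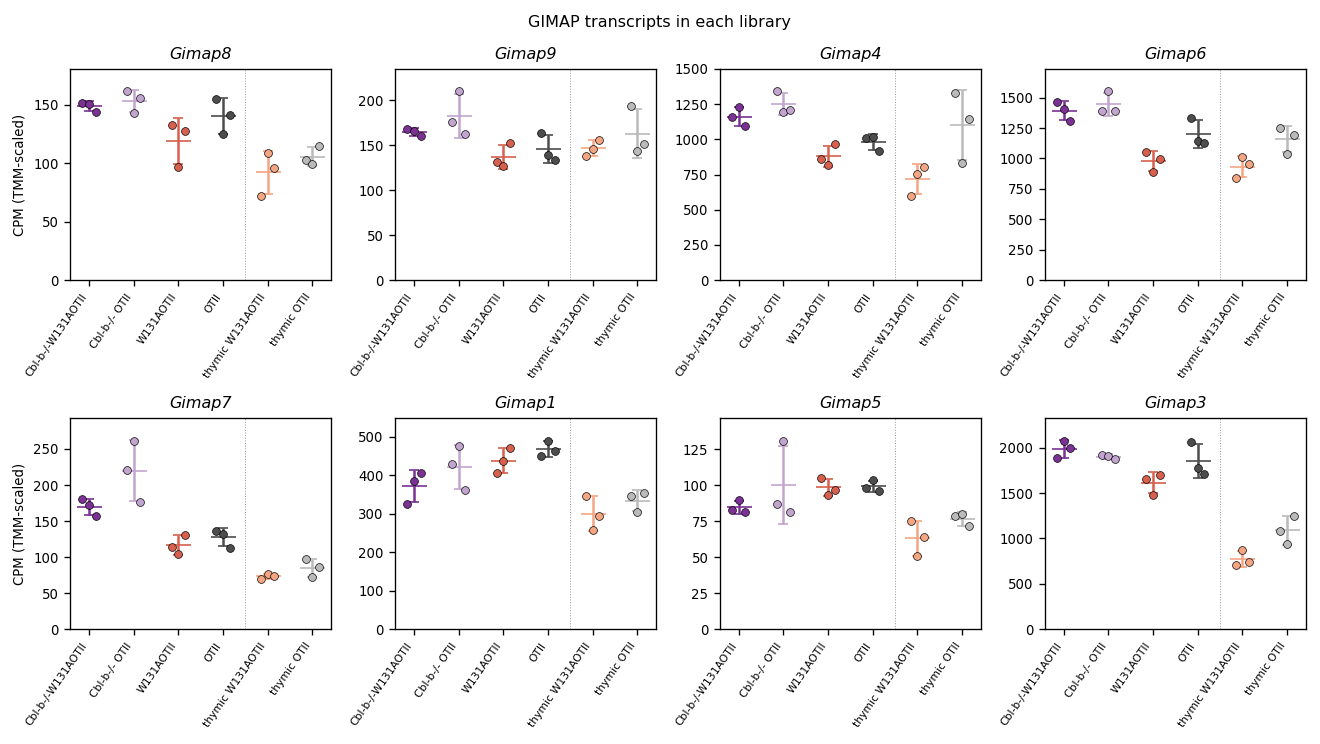
CPM (TMM-scaled) of each GIMAP gene in every library, with the group mean (line) and SD (bars) and 3 libraries per group, peripheral groups left and thymic groups right of the dotted line. Gimap7 is highest in the Cbl-b-/- groups, and Gimap3 is lower in all 6 thymic libraries than in any peripheral library.

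Cbl-b loss in OTII cells went with more Gimap7. In Cbl-b-/- OTII cells Gimap7 was at 221, 262 and 177 CPM, against 137, 132 and 113 CPM in OTII cells. All 3 Cbl-b-/- OTII libraries lay above all 3 OTII libraries. The log2 fold change was 0.79 (SE 0.14, edgeR adjusted p = 0.00439), a ratio of 1.72. It was the 1 member of 8 that passed the test, where 8.21% of the 15204 genes tested passed in this comparison. Without OTII replicate 3 the adjusted p of the edgeR test was 0.0552.

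The remaining 7 members did not pass in that comparison. Gimap4 was at 1340.4, 1195 and 1212 CPM in Cbl-b-/- OTII cells, against 1009.7, 1017 and 917 CPM in OTII cells, and its libraries did not overlap. Its log2 fold change of 0.35 (SE 0.15, edgeR adjusted p = 0.142) did not pass, nor did that of Gimap9, 0.33 (SE 0.13, edgeR adjusted p = 0.125), or that of Gimap6, 0.27 (SE 0.12, edgeR adjusted p = 0.16). Gimap8 (0.13), Gimap3 (0.04), Gimap5 (0.01) and Gimap1 (−0.15) had smaller log2 fold changes, with edgeR adjusted p between 0.526 and 0.984. The median of the 8 members was 0.20, beside 0.04 over all genes tested. Both are from TMM scaling, and values with offsets for GC content are given below. Limma-voom with sample weights called 4 members higher, Gimap7, Gimap4, Gimap9 and Gimap6, while it called 5467 genes in all against 1249 with edgeR.

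Cbl-b loss on the W131A background went with more Gimap6 and Gimap7. Gimap6, the ATG8-binding member, was at 1465, 1407 and 1310.5 CPM in Cbl-b-/-W131AOTII cells, against 1055, 886 and 996 CPM in W131AOTII cells. Gimap7 was at 180.0, 172 and 158 CPM in Cbl-b-/-W131AOTII cells, against 115, 105 and 131.4 CPM in W131AOTII cells. For both genes every Cbl-b-/-W131AOTII library exceeded every W131AOTII library. Gimap6 rose by 0.51 (SE 0.12, edgeR adjusted p = 0.0158). Gimap7 rose by 0.54 (SE 0.14, edgeR adjusted p = 0.0285). They were 2 of 8 members, where 9.25% of all genes tested passed and 3.18% of all genes tested were higher.

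Both calls depended on single libraries. Gimap6 had an edgeR adjusted p of 0.0911 without W131AOTII replicate 2 and 0.102 or 0.0553 when replicate 1 or 2 of the Cbl-b-/-W131AOTII cells was left out. Gimap7 had an edgeR adjusted p of 0.0642 without W131AOTII replicate 1 and 0.135 without W131AOTII replicate 2. Leaving out Cbl-b-/-W131AOTII replicates gave it 0.136 without replicate 1, 0.0801 without replicate 2 and 0.05 without replicate 3. The log2 fold changes stayed between 0.43 and 0.66 for Gimap6 and between 0.45 and 0.69 for Gimap7 in the 29 other settings tried. W131AOTII replicate 2 was the library with the most B cell and myeloid markers and with the lowest Gimap6 of its group, and the part of those markers in the result was not tested.

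The other 6 members gave log2 fold changes from 0.40 for Gimap4 (SE 0.15, edgeR adjusted p = 0.0899) to −0.23 for Gimap1 (SE 0.13, edgeR adjusted p = 0.264), and none of them passed. The median of the 8 was 0.31, beside 0.03 over all genes, again from TMM scaling without offsets for GC content. Limma-voom called 6 members higher, all but Gimap1 and Gimap5, while it called 3517 genes in all against 1407 with edgeR. Cbl-b-/-W131AOTII and W131AOTII cells had similar sums of regulatory T cell markers, 250 to 310 CPM and 245 to 262 CPM over Foxp3, Il2ra, Ikzf2 and Ctla4. The sums were at 93.0 to 128 CPM in Cbl-b-/- OTII and 63.8 to 67.9 CPM in OTII cells. By group medians, Foxp3 was lower in Cbl-b-/-W131AOTII than in W131AOTII cells, at 124.9 against 148.2 CPM. The other markers were higher in Cbl-b-/-W131AOTII cells, Il2ra at 80.56 against 71.61, Ikzf2 at 45.75 against 12.47 and Ctla4 at 26.33 against 16.98 CPM.

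Against OTII cells, Cbl-b-/-W131AOTII cells had 0 members that passed, where 7.39% of all genes passed. Gimap7 came nearest, at 180.0, 172 and 158 CPM in Cbl-b-/-W131AOTII cells and 137, 132 and 113 CPM in OTII cells, with a log2 fold change of 0.42 (SE 0.14, edgeR adjusted p = 0.0834). Its libraries did not overlap, and 2 members had an unadjusted edgeR p under 0.05, Gimap7 and Gimap1. The share of all genes under that cut was not computed, here or in the comparisons below, so such counts only describe the members. DESeq2 called 0 members and limma-voom called 4, Gimap7, Gimap6 and Gimap4 higher and Gimap1 lower, while over all genes it called 4696 against 1123 with edgeR. This comparison uses the same OTII libraries as those of Cbl-b-/- OTII and of W131AOTII cells, so their values are not independent.

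**Figure D4:**
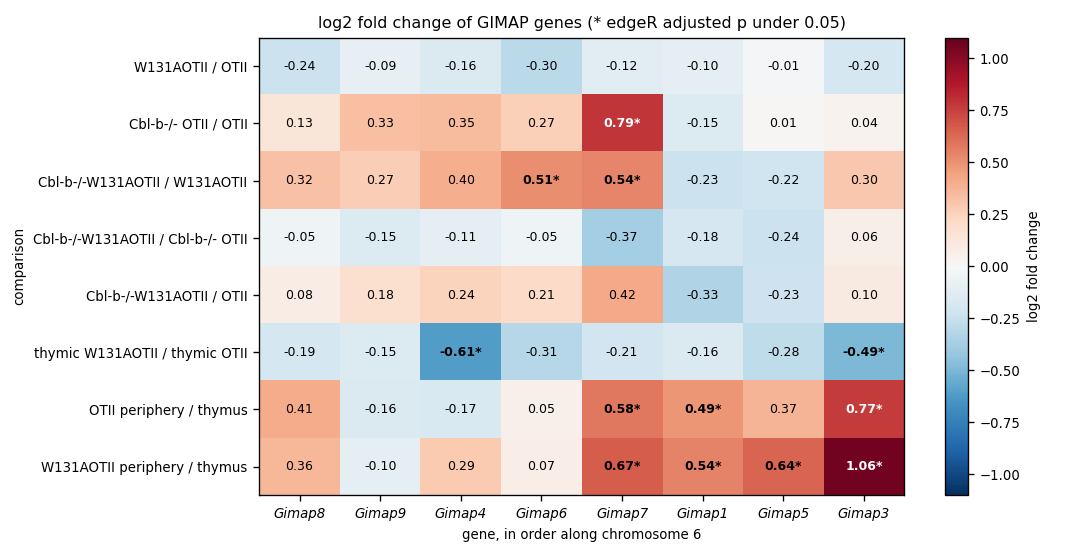
log2 fold change of each GIMAP gene (columns, in order along the chromosome) in 8 comparisons (rows, first-named group over the second), on a colour scale from blue (lower) to red (higher), with a star where the edgeR adjusted p was under 0.05. The starred values run from −0.61 for Gimap4 in thymic W131AOTII cells to 1.06 for Gimap3 in W131AOTII periphery against thymus.

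W131A in peripheral cells changed no member past the threshold. Of the 8 members, 0 passed, where 1.93% of all genes tested passed, and DESeq2 and limma-voom called 0 as well. All 8 log2 fold changes were below 0, from −0.01 for Gimap5 to −0.30 for Gimap6, with a median of −0.14 beside −0.0005 over all genes. Of all genes tested, 50.29% had a negative value. Most members varied together between libraries, as given below, so these signs are not separate observations. Gimap6 was the 1 member with an unadjusted edgeR p under 0.05. It was at 1055, 886 and 996 CPM in W131AOTII cells, against 1333, 1146 and 1127 CPM in OTII cells, with no overlap and a log2 fold change of −0.30 (SE 0.12, edgeR adjusted p = 0.344). The 95% intervals of the members' log2 fold changes reached down to −0.54 for Gimap6 and Gimap8.

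W131A in cells without Cbl-b also gave 0 members past the threshold, where 1.89% of all genes passed. Gimap7 was at 180.0, 172 and 158 CPM in Cbl-b-/-W131AOTII cells, against 221, 262 and 177 CPM in Cbl-b-/- OTII cells. The groups overlapped by 1 library, the highest of Cbl-b-/-W131AOTII above the lowest of Cbl-b-/- OTII cells, and the log2 fold change was −0.37 (SE 0.14, edgeR adjusted p = 0.19). It was the 1 member with an unadjusted edgeR p under 0.05 and the 1 member that limma-voom called, among 2722 genes against 287 with edgeR, while DESeq2 called 0 members. The interaction of W131A with Cbl-b loss passed for 0 members, where 0.631% of all genes passed. Its estimates on the log2 scale ran from −0.25 for Gimap7 to 0.26 for Gimap3, with edgeR adjusted p between 0.56 and 0.951, 0 members had an unadjusted p under 0.05, and DESeq2 and limma-voom called 0.

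In the thymus, W131A went with less Gimap4 and Gimap3. Gimap4, tied to apoptosis, was at 600.3, 753 and 807 CPM in thymic W131AOTII cells, against 1329, 834 and 1142 CPM in thymic OTII cells. Gimap3, the relative of Gimap5, was at 706, 873 and 742 CPM in thymic W131AOTII cells, against 1078, 936 and 1253 CPM in thymic OTII cells. All 3 thymic W131AOTII libraries lay below all 3 thymic OTII libraries for both genes. Gimap4 had a log2 fold change of −0.61 (SE 0.15, edgeR adjusted p = 0.0269). Gimap3 had a log2 fold change of −0.49 (SE 0.12, edgeR adjusted p = 0.0345). These were 2 of 8 members, where 2.77% of all genes tested passed and 1.04% of all genes tested were lower.

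Both thymic calls depended on single libraries. For Gimap4 the edgeR adjusted p was 0.177 without thymic OTII replicate 1, 0.124 without thymic OTII replicate 3 and 0.0944 without thymic W131AOTII replicate 1. For Gimap3 it was 0.0921 without thymic OTII replicate 1, 0.228 without thymic OTII replicate 3, 0.0984 without thymic W131AOTII replicate 1 and 0.138 without thymic W131AOTII replicate 3. Peripheral libraries enter through the shared estimate of spread, and leaving out Cbl-b-/- OTII replicate 1 or Cbl-b-/-W131AOTII replicate 1, 2 or 3 gave Gimap3 an edgeR adjusted p of 0.0549, 0.0517, 0.0556 or 0.0544. With only the 6 thymic libraries in the fit, the edgeR adjusted p was 0.265 for Gimap4 and 0.294 for Gimap3. That fit called 140 genes in all, against 421 with all libraries. Their log2 fold changes stayed below 0 in the 29 settings, at −0.80 to −0.45 for Gimap4 and −0.61 to −0.38 for Gimap3.

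The other 6 members had negative log2 fold changes that did not pass, from −0.15 for Gimap9 to −0.31 for Gimap6, which was at 836, 1008 and 955 CPM in thymic W131AOTII cells, against 1249, 1039 and 1190.0 CPM in thymic OTII cells. The Gimap6 libraries did not overlap, with −0.31 (SE 0.12, edgeR adjusted p = 0.179) as the log2 fold change. The median of the 8 members was −0.25, beside 0.01 over all genes, of which 48.53% had a negative log2 fold change. T cell markers summed to 17280 to 19690 CPM in thymic W131AOTII and 22850 to 25210 CPM in thymic OTII libraries. Most of that gap was Trac, with group medians of 9904 CPM in thymic W131AOTII and 15490 CPM in thymic OTII cells. In the same order Cd3e was at 1413 and 1635, Cd3g at 1062 and 1355, and Cd3d at 751.5 and 1011 CPM. Cd4 was at 1239 and 1284 CPM, while Lck went the other way, at 4058 and 3617 CPM. Markers of NK and innate-like cells, mostly Trdc and Nkg7, summed to 312 to 704 CPM in thymic W131AOTII and 213 to 493 CPM in thymic OTII libraries. Regulatory T cell markers summed to 97.4 to 117 CPM in thymic W131AOTII and 42.7 to 68.8 CPM in thymic OTII libraries, with no overlap, and immature thymocyte markers to 328 to 423 CPM and 215 to 340.5 CPM in those groups. The part of these markers in the GIMAP result was not tested.

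Whether W131A acted differently on the family in the 2 tissues was tested directly, as the peripheral minus the thymic effect. Of the 8 members 0 passed, where 0.381% of all genes passed, and DESeq2 and limma-voom called 0. Gimap4 had the largest difference among the members, 0.46 (SE 0.21, edgeR adjusted p = 0.502) on the log2 scale, and was the 1 member with an unadjusted edgeR p under 0.05. Gimap3 followed at 0.30 (SE 0.17, edgeR adjusted p = 0.621). The thymic calls are therefore not shown to be particular to the thymus.

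Peripheral cells had more Gimap3, Gimap7 and Gimap1 than thymocytes of the same genotype. Gimap3 was at 1657, 1484 and 1701 CPM in peripheral W131AOTII cells, against 706, 873 and 742 CPM in thymic W131AOTII cells. It was at 2063, 1779 and 1710.4 CPM in peripheral OTII cells, against 1078, 936 and 1253 CPM in thymic OTII cells. Every peripheral library lay above every thymic one. The log2 fold change of Gimap3 was 1.06 (SE 0.12, edgeR adjusted p = 5.37e-06) in W131AOTII and 0.77 (SE 0.12, edgeR adjusted p = 0.000177) in OTII cells. Both calls passed in all 29 other settings.

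Gimap7 was at 115, 105 and 131.4 CPM in peripheral W131AOTII cells, against 69.5, 76.5 and 74.5 CPM in thymic W131AOTII cells. In OTII cells it was at 137, 132 and 113 CPM in the periphery, against 97.5, 72.3 and 85.8 CPM in the thymus. Gimap7 was higher in every peripheral library, by a log2 fold change of 0.67 (SE 0.14, edgeR adjusted p = 0.00235) in W131AOTII and 0.58 (SE 0.14, edgeR adjusted p = 0.00766) in OTII cells, and both calls passed in all 29 settings. Gimap1, needed by mature lymphocytes, was at 405, 437 and 470.3 CPM in peripheral W131AOTII cells, against 347, 258 and 295 CPM in thymic W131AOTII cells. It was at 451, 490.1 and 463 CPM in peripheral OTII cells, against 345, 304 and 354 CPM in thymic OTII cells.

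Gimap1 libraries of the 2 tissues did not overlap in either genotype. The log2 fold change of Gimap1 was 0.54 (SE 0.13, edgeR adjusted p = 0.00571) in W131AOTII and 0.49 (SE 0.13, edgeR adjusted p = 0.0134) in OTII cells, and the second had an edgeR adjusted p of 0.0649 without peripheral OTII replicate 2 and 0.058 without thymic OTII replicate 2. Gimap5, the lysosomal member, was at 105, 93.3 and 97.0 CPM in peripheral W131AOTII cells, against 74.998, 50.8 and 64.0 CPM in thymic W131AOTII cells. It was at 97.8, 104 and 96.1 CPM in peripheral OTII cells, against 78.4, 80.1 and 71.4 CPM in thymic OTII cells. Its libraries did not overlap between tissues, and its log2 fold change was 0.64 (SE 0.16, edgeR adjusted p = 0.0069) in W131AOTII and 0.37 (SE 0.16, edgeR adjusted p = 0.117) in OTII cells, of which only the first passed. The difference between these tissue effects was 0.27 (SE 0.22, edgeR adjusted p = 0.736) on the log2 scale.

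In W131AOTII cells 4 of 8 members were higher in the periphery, where 19.2% of all genes tested passed and 8.07% of all genes tested were higher. In OTII cells 3 of 8 were higher, where 18.3% of all genes tested passed and 7.75% were higher, and 0 members were lower in either. Gimap8 was at 132, 96.5 and 128 CPM in peripheral and 72.3, 109 and 95.9 CPM in thymic W131AOTII cells, with a log2 fold change of 0.36 (SE 0.15, edgeR adjusted p = 0.092). In OTII cells Gimap8 was at 155, 125 and 141 CPM in the periphery and 103, 99.0 and 115 CPM in the thymus, with a log2 fold change of 0.41 (SE 0.15, edgeR adjusted p = 0.0577). The OTII libraries of Gimap8 did not overlap, those of W131AOTII did by 1 library, and neither change passed.

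Gimap4, Gimap6 and Gimap9 did not differ past the threshold between tissues. Gimap6 was close to level, with log2 fold changes of 0.07 (SE 0.12, edgeR adjusted p = 0.755) in W131AOTII and 0.05 (SE 0.12, edgeR adjusted p = 0.821) in OTII cells. Their 95% intervals ran from −0.18 to 0.31 and from −0.19 to 0.30. Gimap9 was at 131.2, 127 and 152 CPM in peripheral and 138, 146 and 156 CPM in thymic W131AOTII cells. In OTII cells it was at 163, 139 and 134 CPM in the periphery and 194, 143 and 151 CPM in the thymus. The tissues overlapped in both genotypes. The B cell marker sums given above were higher in every peripheral library than in any thymic one. The NK and innate-like sums were lower in all peripheral OTII than in all thymic OTII libraries and overlapped between tissues in W131AOTII cells, as the immature thymocyte sums did in both genotypes. The sort differed between tissues as well, and the part of these in the GIMAP differences was not tested.

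The members differ in base composition. The GC content of the members' transcripts ran from 43.2% in Gimap9, 43.3% in Gimap4 and 43.7% in Gimap8 through 47.3% in Gimap6 and 48.7% in Gimap7 to 49.4% in Gimap5, 50.7% in Gimap3 and 55.2% in Gimap1. Across all genes tested, which are not independent replicates, the log2 fold change fell with GC content in Cbl-b-/-W131AOTII against W131AOTII cells (Spearman rho −0.407) and in Cbl-b-/- OTII against OTII cells (Spearman rho −0.267). With offsets for GC content and length in the fit, the log2 fold change of Gimap4 in Cbl-b-/- OTII against OTII cells was 0.0019 in place of 0.35, and that of Gimap9 was −0.03 in place of 0.33. In Cbl-b-/-W131AOTII against W131AOTII cells, Gimap4 had 0.07 in place of 0.40 and Gimap9 −0.07 in place of 0.27.

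The members that passed held with these offsets. Gimap7 in Cbl-b-/- OTII against OTII cells had a log2 fold change of 0.66 (edgeR adjusted p = 0.00291). For Gimap6 the value in Cbl-b-/-W131AOTII against W131AOTII cells was 0.46 (edgeR adjusted p = 0.0104), and for Gimap7 it was 0.49 (edgeR adjusted p = 0.0177). In the thymus, Gimap4 had −0.49 (edgeR adjusted p = 0.0119), Gimap3 had −0.43 (edgeR adjusted p = 0.0409), and Gimap6 passed as well, at −0.37 (edgeR adjusted p = 0.0357). Gimap8 passed between periphery and thymus with the offsets, at 0.47 (edgeR adjusted p = 0.00379) in W131AOTII and 0.41 (edgeR adjusted p = 0.0098) in OTII cells.

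**Figure D5:**
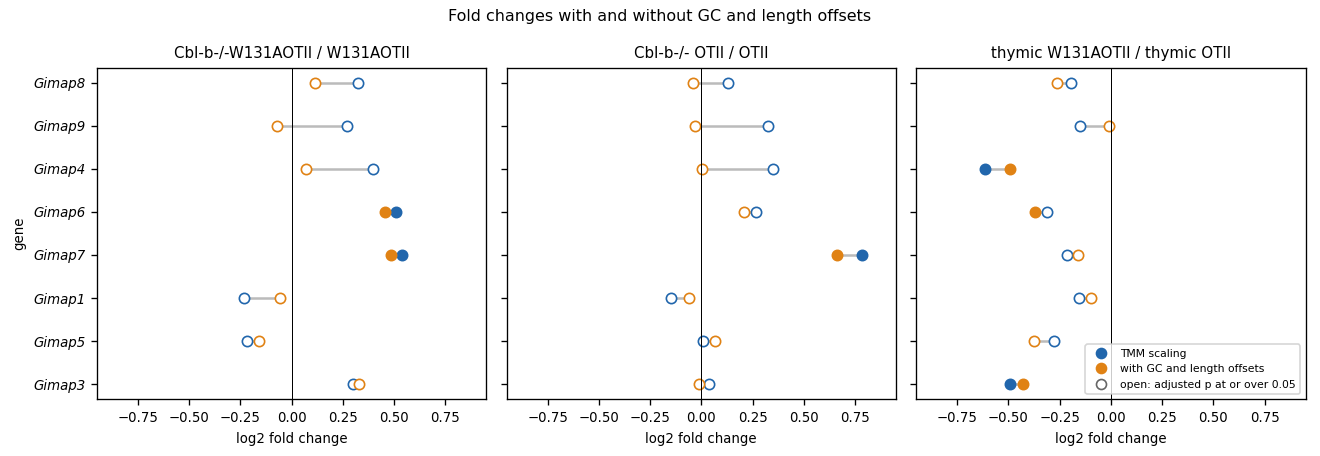
log2 fold change of each GIMAP gene in 3 comparisons of genotypes with TMM scaling (blue) and with added offsets for GC content and length (orange), filled where the edgeR adjusted p was under 0.05. In the comparisons of Cbl-b-/- cells Gimap4 and Gimap8 have lower values with the offsets and Gimap9 falls just below 0. Gimap6 and Gimap7 stay filled where they were.

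The transcripts that overlap the cluster moved in some of the same comparisons. Gimap1os was at 25.6 ± 4.19 CPM in Cbl-b-/-W131AOTII and 16.4 ± 2.19 CPM in W131AOTII cells (mean ± SD, n = 3), a log2 fold change of 0.64 (SE 0.16, edgeR adjusted p = 0.0204). It was at 18.4 ± 1.67 CPM in thymic W131AOTII and 28.1 ± 3.84 CPM in thymic OTII cells, a log2 fold change of −0.61 (SE 0.16, edgeR adjusted p = 0.0379). Gimap1 itself had log2 fold changes of −0.23 and −0.16 there, and neither passed. Gm28053 was at 6.53 ± 1.28 CPM in Cbl-b-/-W131AOTII and 3.50 ± 0.589 CPM in W131AOTII cells, with 0.90 (SE 0.26, edgeR adjusted p = 0.0373) as its log2 fold change. Members share 43.7% of the exon bases of Gm28053 and 35.7% of those of Gimap1os, so the values of both transcripts, and of the members they overlap, are uncertain.

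Tmem176b, next to Gimap3, was at 14.8 ± 2.59 CPM in peripheral W131AOTII and 24.8 ± 4.71 CPM in thymic W131AOTII cells, with a log2 fold change of −0.75 (SE 0.23, edgeR adjusted p = 0.024). In OTII cells it was at 12.4 ± 0.845 CPM in the periphery and 21.3 ± 4.98 CPM in the thymus, with a log2 fold change of −0.78 (SE 0.23, edgeR adjusted p = 0.0211). It was thus lower in the periphery where Gimap3 was higher. AI854703, next to Gimap8, passed in none of the 10 comparisons, at 9.14 to 15.98 CPM as group means.

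Within groups, most members varied together from library to library. Over the 18 libraries, each taken as its deviation from the group mean on the log2 CPM scale, the 28 pairs of members had a median Pearson r of 0.363, and 22 were positive. The highest was 0.88, for Gimap9 and Gimap7, and the lowest −0.495, for Gimap8 and Gimap5. With the GC and length offsets, an alternative added after seeing the data, the median was 0.287, with 25 pairs positive and a range from −0.505 to 0.844. The points share library depth and base composition, and r is given as a description.

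The genes most like the family in pattern are named by their Pearson correlation with the mean of the members' standardized log2 CPM, among 7523 genes. Over the 12 peripheral libraries they were Wdr45b (r = 0.953, rho = 0.965), AW209491 (r = 0.944), Arhgef10 (r = 0.943), Otulinl (r = 0.94), Sh2d1a (r = 0.939) and Nipsnap2 (r = 0.923). Over all 18 libraries they were Gm8369 (r = 0.944, rho = 0.882), Pla2g16 (r = 0.933), Nmi (r = 0.922), Tdrp (r = 0.917), Cox7a2l (r = 0.909) and H2-Q7 (r = 0.902). None is in both lists of 6. These were picked as the highest of many, and the libraries fall into groups, so r is a description of likeness.

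The wider setting was read from 18 genes of naive T cell quiescence and survival. Calls of genes outside the family, here and elsewhere, were not recomputed gene by gene under the other settings. In Cbl-b-/- OTII against OTII cells 3 of 18 fell and 1 rose, where 2.99% of all genes tested were lower and 5.22% higher. Foxo1, a transcription factor of naive homeostasis, had a log2 fold change of −0.63 (SE 0.14, edgeR adjusted p = 0.0139). S1pr1, the receptor for egress, fell by 0.43 (edgeR adjusted p = 0.0328), and Bach2, a repressor of effector genes, fell by 0.56 (edgeR adjusted p = 0.0279). Slfn2, which maintains quiescence in mice, rose by 0.60 (edgeR adjusted p = 0.0182). The median of the list was −0.26, beside 0.20 for the GIMAP members and 0.04 for all genes. These medians are from TMM scaling without the GC and length offsets. With those offsets Gimap7 had 0.66 and Gimap6 0.21, and the other members lay between −0.06 and 0.07.

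In Cbl-b-/-W131AOTII against W131AOTII cells 3 of the 18 fell and 0 rose, where 6.08% of all genes tested were lower and 3.18% higher. They were Tcf7 at −0.48 (SE 0.12, edgeR adjusted p = 0.0204), a factor of naive and memory identity, Klf2 at −0.53 (edgeR adjusted p = 0.0417), which drives S1pr1, and Ccr7 at −0.40 (edgeR adjusted p = 0.0497), a lymph node homing receptor. In W131AOTII against OTII cells 0 of 18 passed, where 1.93% of all genes did. In the thymus Klf2 was at 224 CPM in W131AOTII and 482 CPM in OTII cells (means), a log2 fold change of −1.11 (SE 0.16, edgeR adjusted p = 0.000352). S1pr1 was at 434 CPM in thymic W131AOTII and 734 CPM in thymic OTII cells, −0.76 as log2 fold change (SE 0.12, edgeR adjusted p = 0.000795). They were the 2 of 18 that fell with W131A in the thymus, beside 1.04% of all genes tested, and Gimap4 and Gimap3 fell there as well. Klf2 was also the 1 gene of the list whose W131A effect differed between tissues, by a log2 value of 1.34 (SE 0.22, edgeR adjusted p = 0.00685).

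Between periphery and thymus, 7 of the 18 genes were higher and 2 lower in peripheral W131AOTII cells, and 4 were higher and 4 lower in peripheral OTII cells. Of all genes tested, 8.07% were higher and 11.2% lower in peripheral W131AOTII cells, and 7.75% were higher and 10.6% lower in peripheral OTII cells. S1pr1 was higher in the periphery by 1.63 on the log2 scale in W131AOTII (SE 0.12, edgeR adjusted p = 2.04e-08) and by 0.89 in OTII cells (SE 0.12, edgeR adjusted p = 2.3e-05). Foxo1 was also higher in both, and Satb1, a chromatin organizer of thymocytes, and Btg2, an antiproliferative factor, were lower in both. In W131AOTII cells Klf2 was higher by 1.26 (SE 0.16, edgeR adjusted p = 1.22e-05).

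A second list held 14 genes of the BCL-2 family and of the ATG8 and GSK3 proteins linked to GIMAP function, and in Cbl-b-/-W131AOTII against W131AOTII cells 2 of them passed, where 9.25% of all genes did. Bcl2, the survival factor, was at 303 CPM in Cbl-b-/-W131AOTII and 178.5 CPM in W131AOTII cells (means), a log2 fold change of 0.76 (SE 0.19, edgeR adjusted p = 0.0224). Gsk3a, 1 of the 2 GSK3 genes of the list, fell by 0.79 there (SE 0.17, edgeR adjusted p = 0.0124). The other 12, with Gsk3b among them, did not pass. In Cbl-b-/- OTII against OTII cells Bcl2l11, which encodes the death-promoting BIM, fell by 0.53 (SE 0.14, edgeR adjusted p = 0.0299) as the 1 of 14, where 8.21% of all genes passed. In thymic W131AOTII against OTII cells 0 of 14 passed, where 2.77% of all genes did. In OTII periphery against thymus 4 of 14 fell and 0 rose, where 10.6% of all genes tested were lower. Bcl2l1 was at 37.5 CPM in peripheral OTII and 74.1 CPM in thymic OTII cells (means), −0.98 as log2 fold change (SE 0.12, edgeR adjusted p = 7.59e-06). Bcl2 fell by 0.66 (edgeR adjusted p = 0.0185), and the low-level ATG8 genes Gabarapl1 and Map1lc3a fell by 1.25 (edgeR adjusted p = 0.00896) and by 1.29 (edgeR adjusted p = 0.00236). In W131AOTII cells 1 of the 14 rose and 3 fell, where 8.07% and 11.2% of all genes did, and Bcl2l1 fell by 1.16 (SE 0.12, edgeR adjusted p = 1.13e-06).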

How the data were processed

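RNA from 18 sorted CD4 T cell samples was sequenced from 1 end for 50 bases, per the labels' protocols. The authors deposited whole-number read counts for each gene with no normalization. The submitters' processing notes name STAR 2.7.2, GRCm38 and DESeq2, without their roles. The counter, the handling of multi-mapped reads and the strand setting were not given in the sources used here. Groups and replicate numbers come from the sample titles. All 55536 identifiers matched GENCODE M21, and 0 columns lacked a sample.

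The 18 libraries were fitted together in edgeR 4.0.16 (R 4.3.3), which left 12 residual degrees of freedom. After filterByExpr (15204 genes) and TMM scaling, contrasts of group means were tested with robust quasi-likelihood, and p was adjusted by Benjamini-Hochberg over every gene at a threshold of 0.05. There were 10 comparisons. SE comes from the same fit, and the script was tested on simulated data. Alternatives were other scalings and filters, GC and length offsets, a replicate block, fewer libraries, DESeq2 1.42.0 and limma-voom 3.58.1. No pair of libraries of a group agreed within sampling noise.

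The members, the 2 gene lists, the marker lists and the naming rule were chosen with earlier results of these data known. The rule names all members, Cblb, overlapping and neighbouring genes, the 6 genes most alike in pattern in each set of libraries (mean log2 CPM of at least 4, prior count 2), and up to 6 genes of a list that passed in a comparison described. Promoter sequences are from RefSeq (GRCm38.p6), which matched all 8 members. The values of 2 genes of the lists are not reported here.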

Additional observations from a re-analysis of the deposited data

How the results depend on the processing

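The counts of members past the threshold were recomputed under 11 settings beside leaving out each of the 18 libraries. They stayed at 0 of 8 in every setting for W131AOTII against OTII cells, for the interaction and for the difference between tissues. Library size without TMM factors gave 4 members in Cbl-b-/-W131AOTII against W131AOTII cells in place of 2 and 1 against OTII cells in place of 0. That scaling moved the median log2 fold change of all genes to 0.179 and 0.155 there, and the share of higher calls among all genes to 64.4% in place of 34.3% and to 71.1% in place of 52.4%. It gave 61.6% in place of 42.5% in Cbl-b-/-W131AOTII against Cbl-b-/- OTII cells. The limma-voom test gave 4 members in Cbl-b-/- OTII against OTII, 6 in Cbl-b-/-W131AOTII against W131AOTII, 1 in Cbl-b-/-W131AOTII against Cbl-b-/- OTII, 4 in Cbl-b-/-W131AOTII against OTII cells and 5 in OTII periphery against thymus in place of 3. It called 2722 to 5467 genes in all in these comparisons, against 287 to 2785 with edgeR. A fit of the compared groups alone gave 4 in Cbl-b-/-W131AOTII against W131AOTII, 2 in Cbl-b-/-W131AOTII against OTII, 0 in thymic W131AOTII against OTII cells in place of 2, and 5 in OTII periphery against thymus. In the thymic comparison that fit called 140 genes in all, against 421 with all libraries. Its counts over all genes in the other comparisons named are not given here. Another setting left out W131AOTII replicate 2, Cbl-b-/- OTII replicate 2 and thymic OTII replicate 3. They were taken as standing apart from their groups, and no measure for that choice is given here. That setting gave 0 members in Cbl-b-/-W131AOTII against W131AOTII and 0 in thymic W131AOTII against OTII cells. Calls over all genes fell with it as well, to 253 from 1407 in Cbl-b-/-W131AOTII against W131AOTII cells. Its count over all genes in the thymic comparison is not given here. Leaving out 1 library at a time gave 0 to 1 members in Cbl-b-/- OTII against OTII, 0 to 2 in Cbl-b-/-W131AOTII against W131AOTII, 0 to 2 in thymic W131AOTII against OTII cells, 2 to 4 in OTII and 4 to 5 in W131AOTII periphery against thymus. Over all genes, counts of calls with those 18 fits ran from 150 to 1737 in Cbl-b-/- OTII against OTII (1249 with all libraries), from 124 to 2020 in Cbl-b-/-W131AOTII against W131AOTII (1407), from 144 to 946 in Cbl-b-/-W131AOTII against Cbl-b-/- OTII (287), from 341 to 1487 in Cbl-b-/-W131AOTII against OTII (1123), from 147 to 360 in W131AOTII against OTII (293) and from 177 to 584 in thymic W131AOTII against OTII cells (421). They ran from 49 to 169 for the interaction (96) and fell as low as 23 for the difference between tissues (58), which was over 1.5 times higher without Cbl-b-/- OTII replicate 2 or thymic W131AOTII replicate 1. Peripheral OTII replicate 3 was the library left out at the lowest count in 5 of these 8. Against W131AOTII cells it was replicate 1 of Cbl-b-/-W131AOTII, against Cbl-b-/- OTII cells replicate 2 or 3 of that group, and in the comparison of thymic groups thymic OTII replicate 3. For periphery against thymus no single library moved the count by over 1.5 times. GC and length offsets moved the higher share of calls to 49.8% in place of 42.3% in OTII periphery against thymus. Of the members' fold changes, 2320 were recomputed, of which 2253 kept their side of the threshold, 93 of them uncalled with a change of sign, 30 lost a call and 37 gained one. Except where stated, the cause was not tested.

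Taken over all groups, the replicate numbers did not show a pairing of the libraries. Same-numbered libraries from both tissues of a genotype could share animals, and pairing among those alone was not tested. Of 45 same-numbered pairs of libraries, 6 had deviations correlated above 0.1, with a median of −0.003, and 3 of 18 libraries correlated best with their own number. A replicate block gave 1 member in thymic W131AOTII against OTII cells in place of 2, with or without the GC and length offsets, because Gimap3 had an edgeR adjusted p of 0.0573 and Gimap4 0.0453 under the block, and it changed no other count by over 1.5 times. Each member had at least 1580 counts in every library, and no fit at another depth or group size was run.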

Other observations

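The genes named as most like the family in the peripheral libraries include Wdr45b, a lipid-binding protein of autophagy, and Sh2d1a, the adaptor SAP of T cells. Over all 18 libraries they include Nmi, an interferon-inducible partner of STAT proteins, and H2-Q7, a nonclassical class I gene. Zap70, the gene altered by W131A, fell by 0.68 on the log2 scale in Cbl-b-/-W131AOTII against W131AOTII cells (SE 0.21, edgeR adjusted p = 0.0431), the comparison in which Gimap6 and Gimap7 rose.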
